A study of Mus musculus with 1111 samples.

Results

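The genes of 10 receptor chains, through which microglia sense colony-stimulating factors, interleukins and interferons, are described here across 3 groups of mouse microglia. They are 10 of the 35583 genes in the deposited count tables and were picked by name: *Csf1r*, *Csf2ra*, *Csf2rb*, *Csf3r*, *Il10ra*, *Il10rb*, *Il6ra*, *Ifngr1*, *Ifnar1* and *Ifnar2*. All 10 were found, and all 10 passed the filter on low values in every comparison. The cells were brain microglia of mice aged 3 months. Every animal had received plasma proteins tagged with NHS-Atto647N, an amine-binding fluorescent dye, 20 hours before the cells were taken, so no group came from mice without tagged plasma. By the strength of that plasma signal inside the cell, they form the groups plasma none, low and high. Each library is 1 cell made by Smart-seq2, which reads full-length transcripts and carries no molecular identifiers. The labels give no strain, sex or animal.

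Microglia depend on Csf1r, a receptor tyrosine kinase that binds the growth factors Csf1 and Il34. The other members belong to the cytokine receptor families that have no kinase of their own and signal through JAK kinases and STAT transcription factors bound to their tails. Most of these work as pairs: a chain that recognises the ligand (Csf2ra, Il10ra, Il6ra, Ifngr1) joins a chain that is often shared between cytokines (Csf2rb, Il10rb, Il6st, Ifngr2), and Ifnar1 with Ifnar2 forms the type I interferon receptor. Csf3r, the receptor of granulocyte colony-stimulating factor, pairs with itself.

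Of 1111 labelled cells, 1045 had a column in the tables and 987 passed a minimum of 50000 reads and 500 genes. Of these, 35.1% were plasma none, 35.6% plasma low and 29.4% plasma high. The labels also carry TH numbers 1, 2 and 3 and do not explain them. Reads were summed for each group and TH number, which gave 9 sums of 21309816 to 49323522 reads. With no animal named, a group is a single sample of cells. Differences between groups are therefore given without a p-value, and the SD over TH numbers (n = 3) is a spread between sets of wells that may be technical. Plasma none filled plate columns 1 to 8, plasma low columns 9 to 16 in every TH number, and plasma high lay between columns 17 and 24, so plasma signal and plate position cannot be told apart. Levels are in CPM, the read count of a gene scaled to a common library size. The microglia marker *P2ry12* averaged 9304 CPM (plasma none), 9331 (low) and 8891 (high), and *Cx3cr1* averaged 7874, 7139 and 6944 CPM in the same order. *Tmem119*, another such marker, averaged 4844, 4199 and 3576 CPM, and its plasma high values (3321 to 3740) lay below those of plasma none (4686 to 5047). Of 8 neutrophil markers, 7 had no read in any passing cell, and none of 6 lymphocyte markers had one. Border-associated macrophage markers (5 of 7 without a read) summed to at most 9.89 CPM in a group mean, and monocyte and astrocyte markers to at most 3.09. Oligodendrocyte markers summed to 49.6 (21.2 to 68.9 over TH numbers), 49.7 (28.6 to 60.9) and 74.1 (56.4 to 83.4) CPM from plasma none to high, and neuron markers to 0.226, 1.63 and 19.8 CPM, with 58.1 CPM in 1 sum of plasma high. Endothelial markers, 3 of 6 without a read, gave 12.9, 17.2 and 16.7 CPM. Cells of plasma low and high gave more genes (median 1768 to 2213 and 1882.5 to 2045, by TH number) than cells of plasma none (1631 to 1729.5). Depth differed too, with median reads per cell of 175699 to 277222 (plasma none), 194547.5 to 359773 (low) and 228822 to 404743 (high) by TH number. The median share of mitochondrial reads ranged from 0.548% to 0.659% (plasma none), 0.721% to 0.878% (low) and 0.751% to 1.15% (high). The part of these differences in the results was not tested.

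The receptors spanned a wide range of transcript levels. Per kilobase of exon, *Csf1r* averaged 1124.3 ± 176.3 CPM (SD, 9 sums) and ranked 29 among all genes, and *Ifngr1* averaged 546.9 ± 86.97 CPM and ranked 60. A middle group followed, made of *Csf3r* (104.2 ± 10.5), *Il10rb* (100.8 ± 31.7), *Ifnar2* (80.4 ± 17.6), *Il10ra* (75.5 ± 18.5) and *Il6ra* (50.1 ± 9.87 CPM per kilobase). *Csf2ra* (25.4 ± 7.86), *Ifnar1* (17.6 ± 6.75) and *Csf2rb* (17.4 ± 2.86 CPM per kilobase) were the lowest members. Down this order, with the 3 partner chains *Ifngr2*, *Il6st* and *Csf2rb2* placed in it, the 9 sums of a gene lay wholly below those of the gene above it only for *Ifngr1*, *Csf3r*, *Csf2ra* and *Csf2rb2*. All other neighbours overlapped. A level per kilobase assumes that reads cover the exons evenly, which was not tested.

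**Figure D1:**
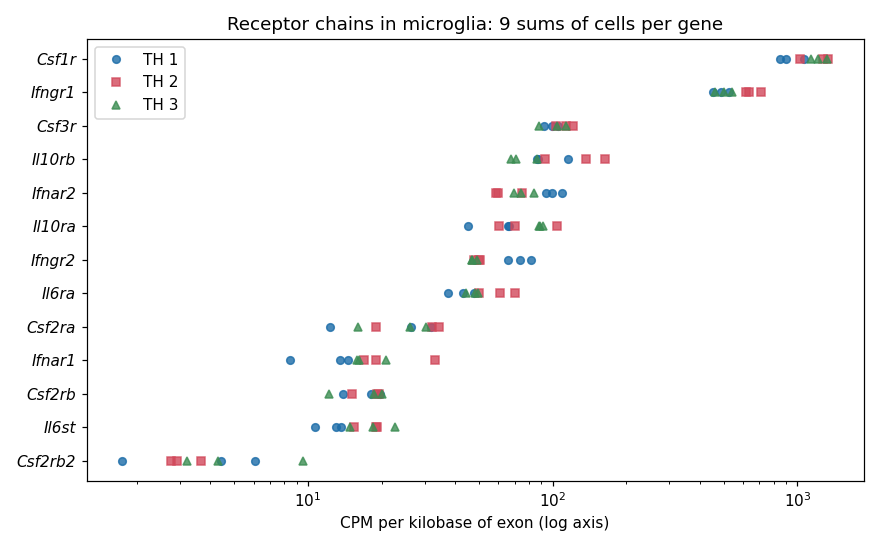
Level of the 10 receptors and 3 partner chains in CPM per kilobase of exon on a log axis. Each point is 1 of 9 sums of cells (3 groups in each of 3 TH numbers), with symbols for the TH number; *Csf1r* and *Ifngr1* stand apart from the middle genes, and *Csf2rb2* is lowest.

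Presence in single cells kept *Csf1r* and *Ifngr1* on top and the same lowest members, but ordered the middle group otherwise. A *Csf1r* read was found in 99.8% of the 987 cells and missing in 2. *Ifngr1* was read in 93.3% of cells, *Il6ra* in 66.6%, *Csf3r* in 64.8%, *Il10ra* in 54.9%, *Ifnar2* in 54.2% and *Il10rb* in 50.2%. *Csf2ra* (35.8%), *Csf2rb* (27.1%) and *Ifnar1* (22.3%) were read in a minority. A cell without a read may still carry the transcript, since shares depend on depth. With each cell thinned to 50000 reads, a cell had reads of 5.27 ± 0.28 (plasma none), 5.47 ± 0.33 (low) and 5.55 ± 0.21 (high) of the 10 receptors (mean ± SD over 3 TH numbers). The unthinned means were 5.50, 5.71 and 5.88. The ranges over TH numbers overlapped between the groups, although plasma high lay above plasma none within each TH number, with and without thinning. Single cells had reads of 1 to 10 of the receptors.

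Among the receptors for colony-stimulating factors, *Csf1r* (ENSMUSG00000024621, mm10 chr18:61100598-61132149, plus strand) was the most abundant member. Its exons overlap those of *Hmgxb3* on the other strand, whose reads came to 0.641% of those of *Csf1r*. In TH 1, 2 and 3, *Csf1r* stood at 4919, 5939 and 6556 CPM (plasma none), 5196, 7353 and 6982 (low), and 6162, 7716 and 7604 (high). Within each TH number the level was lowest in plasma none and highest in plasma high, while the ranges of the groups overlapped, and TH 1 was the lowest in each group. The mean log2 ratio of plasma high to none was 0.31 ± 0.084 (SD, n = 3; log2 of CPM + 1), against 0.16 ± 0.13 for plasma low to none and 0.15 ± 0.091 for plasma high to low. The high to none value fell to 0.18 when CPM was averaged over cells in place of summed reads and to 0.19 without the outermost wells. The median cell held 5720 CPM (plasma none), 6162 (low) and 6329 (high). In TH 2, however, the median cell of plasma high (6485) lay below that of plasma low (6549), so the order held there for summed reads only.

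*Csf2ra* (ENSMUSG00000059326, mm10 chr19:61223957-61228429, minus strand) encodes the chain that binds granulocyte-macrophage colony-stimulating factor. It was the only member past the size rule in plasma high against none, which asks for a mean ratio of at least 1.5-fold with the same sign in all 3 TH numbers. Of 5534 genes tested in that comparison, 16.3% were past the rule in either direction and 9.34% in the higher direction, so 1 of 10 receptors is near the background. *Csf2ra* stood at 75.99, 54.4 and 46.2 CPM (plasma none), 35.4, 91.96 and 74.95 (low), and 91.9, 98.6 and 87.5 (high). The 3 values of plasma high lay above all 3 of plasma none, and plasma low overlapped both. The mean log2 ratio of plasma high to none was 0.68 ± 0.35, with 0.27, 0.85 and 0.91 in TH 1, 2 and 3. It was past the rule in 10 of 12 settings and missed it at 0.49 with CPM averaged over cells and at 0.56 without TH 3. Plasma low to none gave opposite signs between TH numbers. At 50000 reads per cell, *Csf2ra* was read in 27.5% of plasma none cells (95% Clopper-Pearson interval 22.8 to 32.5), 31.1% of plasma low (26.2 to 36.2) and 34.5% of plasma high (29.02 to 40.3). The unthinned shares were 32.9%, 35.6% and 39.3%. These intervals, which cover counting error only, overlap.

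Promoter windows of 250 bases before to 50 bases after the start site were available from RefSeq (GRCm38.p6) for 6 of the 10 receptors: *Csf2ra*, *Csf3r*, *Il6ra*, *Ifngr1*, *Ifnar1* and *Ifnar2*. They were searched on both strands for GAGGAA, the core read by the myeloid factor PU.1, which is known to act at promoters of colony-stimulating factor receptor genes. A match occurred in 4 of the 6 windows and in 28.3% of all 32851 windows of the same length. The windows of *Csf2ra* and *Csf3r* are shown because they belong to the colony-stimulating factor receptors and carry the match on the strand of the gene; capitals mark it.
Csf2ra (chr19:61228369-61228668, minus strand): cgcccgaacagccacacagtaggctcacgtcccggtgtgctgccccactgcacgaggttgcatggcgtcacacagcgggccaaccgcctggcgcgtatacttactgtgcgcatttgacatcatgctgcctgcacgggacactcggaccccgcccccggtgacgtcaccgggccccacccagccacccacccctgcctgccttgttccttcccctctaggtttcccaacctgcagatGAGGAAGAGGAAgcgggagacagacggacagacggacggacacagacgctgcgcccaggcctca
Csf3r (chr4:126024409-126024708, plus strand): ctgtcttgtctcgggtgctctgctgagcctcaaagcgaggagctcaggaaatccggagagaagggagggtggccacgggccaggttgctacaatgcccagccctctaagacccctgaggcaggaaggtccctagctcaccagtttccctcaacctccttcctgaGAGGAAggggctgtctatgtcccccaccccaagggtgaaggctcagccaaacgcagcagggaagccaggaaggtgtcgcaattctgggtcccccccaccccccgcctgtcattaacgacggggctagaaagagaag
*Csf2ra* holds 2 adjoining matches, which begin 14 and 8 bases before the start site, and *Csf3r* holds 1 that begins 86 bases before it. These are RefSeq start sites, which differ from the gene positions given here. By those positions, the *Csf3r* match and the *Csf2ra* match nearer the start site lie inside the gene. *Il6ra* and *Ifnar1* carry 1 match each on the other strand, and *Ifngr1* and *Ifnar2* carry none in this window. A match describes the letters only and shows no binding.

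*Csf2rb* (ENSMUSG00000071713, mm10 chr15:78325752-78353847), the common beta chain that Csf2ra shares with the receptors for interleukins 3 and 5, stood at 131.3, 109.9 and 136.2 CPM in plasma none. It stood at 101.5, 142.2 and 89.1 CPM in plasma low and at 142.8, 138.9 and 146.02 in plasma high. As with *Csf2ra*, the plasma high values lay above all plasma none values, so 2 of the 10 receptors did not overlap in that direction, against 8.51% of genes tested. The difference was small, with a mean log2 ratio of 0.18 ± 0.13. It was 0.11 without TH 2 and 0.31 when the cell with the most reads of the gene was dropped from each sum. A single cell held 17.2% to 43.6% of the *Csf2rb* reads in the sums of plasma none and 13.5% to 36.5% in those of plasma high. *Csf2rb2*, the related mouse beta chain used with the interleukin 3 receptor, lies 20030 bases away on chromosome 15 in the opposite orientation. It averaged 12.5 ± 3.71 CPM in plasma none and 27.8 ± 15.1 in plasma high (log2 ratio 1.02 ± 0.63). It reached the minimum mean of 20 CPM only through plasma high, so its place past the size rule is no support for a difference. The 2 beta chains are near-identical copies, and how the authors' counting shared reads between them is not given in the sources used here, so both values are uncertain.

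*Csf3r* (ENSMUSG00000028859, mm10 chr4:126024550-126044440) differed little between groups. Plasma none gave 333.4, 437.2 and 316.6 CPM, plasma low 358.6, 407.9 and 407.9, and plasma high 378.1, 371.3 and 374.8. The group ranges overlapped, and the log2 ratio of plasma high to none was 0.063 ± 0.26. Neutrophils are known for this receptor, and the neutrophil markers *S100a8*, *S100a9*, *Ly6g*, *Retnlg*, *Mmp8*, *Camp* and *Ngp* had no read in these cells, which allows a share of up to 0.304% of the 987 cells with a read of each (3 counts, counting error only). *Cxcr2* was read at a mean of 4.66 CPM in plasma none and had no read in the other groups.

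**Figure D2:**
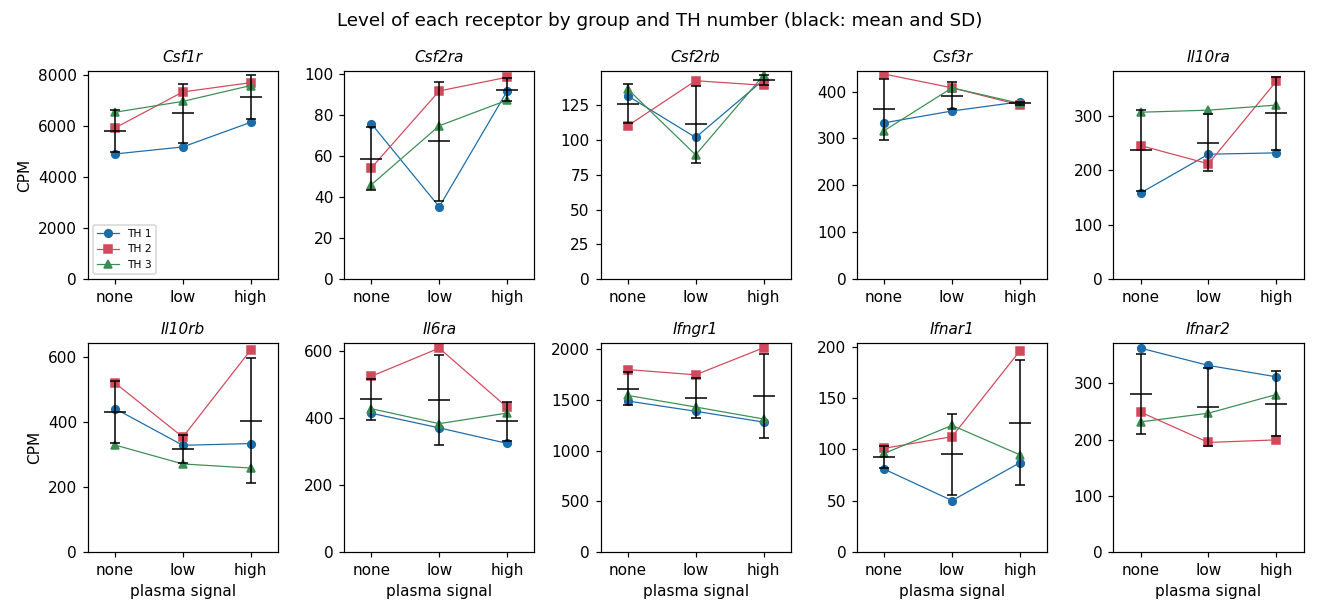
CPM of each receptor in plasma none, low and high, with a line per TH number and the mean ± SD in black; every axis starts at 0. *Csf1r* is higher at each step along all 3 lines, *Csf2ra* shows plasma high above plasma none, as does *Csf2rb* by a small margin, and the other receptors overlap.

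None of the interleukin receptors was past the size rule. *Il10ra* (mm10 chr9:45253837-45269149), the ligand-binding chain for the anti-inflammatory cytokine Il10, stood at 158.5, 245.6 and 306.7 CPM (plasma none), 229.7, 212.04 and 310.5 (low), and 232.1, 363.5 and 319.8 (high). The ranges overlapped, although plasma high exceeded plasma none in 3 of 3 TH numbers, with a mean log2 ratio of 0.39 ± 0.29. *Il10rb* (chr16:91406164-91425834), which also serves other cytokines of the Il10 family, stood at 441.1, 520.2 and 329.03 CPM (plasma none), 328.1, 353.2 and 270.7 (low), and 333.4, 621.7 and 258.04 (high). It was lower in plasma low than in plasma none in 3 of 3 TH numbers (mean log2 ratio -0.42 ± 0.14), as were 11.8% of genes tested, and TH 2 alone gave a higher value in plasma high. For plasma low against none, 10.2% of 5489 genes tested were past the 1.5-fold rule, and none of the 10 receptors was.

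*Il6ra* (chr3:89864059-89913196), the ligand-binding chain for Il6, stood at 414.1, 524.5 and 427.8 CPM (plasma none), 370.5, 608.8 and 383.1 (low), and 324.1, 431.6 and 414.8 (high). No other member had plasma high below plasma none in 3 of 3 TH numbers, as *Il6ra* did, and its mean log2 ratio was -0.23 ± 0.16, where 13.8% of genes tested were lower in all 3. Its partner *Il6st*, the signalling chain gp130, averaged 151.55 ± 28.9 CPM (plasma none), 202.2 ± 54.7 (low) and 189.4 ± 33.5 (high). The *Il6st* log2 ratio of plasma high to none was 0.32 ± 0.026, and it was 0.14 when the cell with the most reads of the gene was dropped from each sum.

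For the interferon receptors, *Ifngr1* (chr10:19591949-19610229), the ligand-binding chain for interferon gamma, stood at 1490, 1800 and 1545 CPM (plasma none), 1389, 1749 and 1431 (low), and 1282, 2016 and 1312 (high). The groups overlapped; plasma low was below plasma none in 3 of 3 TH numbers by a small amount (log2 ratio -0.085 ± 0.038). Its partner *Ifngr2* averaged 217.6 ± 52.6 CPM (plasma none), 203.8 ± 37.5 (low) and 221.7 ± 75.3 (high), and its log2 ratio of plasma high to none was 0.0025 ± 0.13.

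*Ifnar1* (chr16:91485238-91507441) stood at 80.7, 101.02 and 96.02 CPM (plasma none), 50.04, 112.4 and 123.5 (low), and 86.97, 196.2 and 94.7 (high). The plasma high value of TH 2 stood out, and a single cell held 38.4% of the reads of *Ifnar1* in that sum. The log2 ratio of plasma high to none was 0.35 ± 0.53 and was 0.043 without TH 2. *Ifnar2* (chr16:91372783-91405589) stood at 362.8, 248.9 and 231.5 CPM in plasma none, 194.8 and 246.97 in TH 2 and 3 of plasma low, and 311.7, 199.4 and 280.2 in plasma high, with a TH 1 log2 ratio of plasma low to none of -0.13. The ranges overlapped, and plasma high to none gave a log2 ratio of -0.087 ± 0.32.

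Genes of 4 of these chains are neighbours. In mm10 the order on chromosome 16 is *Ifnar2*, *Il10rb*, *Ifnar1* and *Ifngr2*, with gaps of 574, 59403 and 39630 bases. The annotated gene *Gm21970* shares exons with both *Ifnar2* and *Il10rb*. Its 53469 reads, in 693 cells, never appeared in a cell without a read of *Ifnar2* or *Il10rb* and came to 29.2% of their summed reads. Likewise *Gm42809*, on the other strand, overlaps *Il6ra* and had 2.88% as many reads. In a further setting all reads of *Gm21970* were taken from *Il10rb* and again from *Ifnar2*, although cells with its reads could lack either receptor. After removal of the overlapping reads, the log2 ratios of plasma high to none were -0.22 for *Il10rb*, -0.18 for *Ifnar2* and -0.23 for *Il6ra*. All kept the sign they had before, though for *Il10rb* and *Ifnar2* the removed reads were not split between the genes. The levels fell to 59.7 CPM per kilobase for *Il10rb* and 46.7 for *Ifnar2*, both below the 75.5 of *Il10ra*. These levels are lower limits, because the same reads were removed from both genes. The place of these chains in the order of levels may therefore depend on how the shared reads are assigned. How the counting assigned shared reads is not given in the sources used here.

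**Figure D3:**
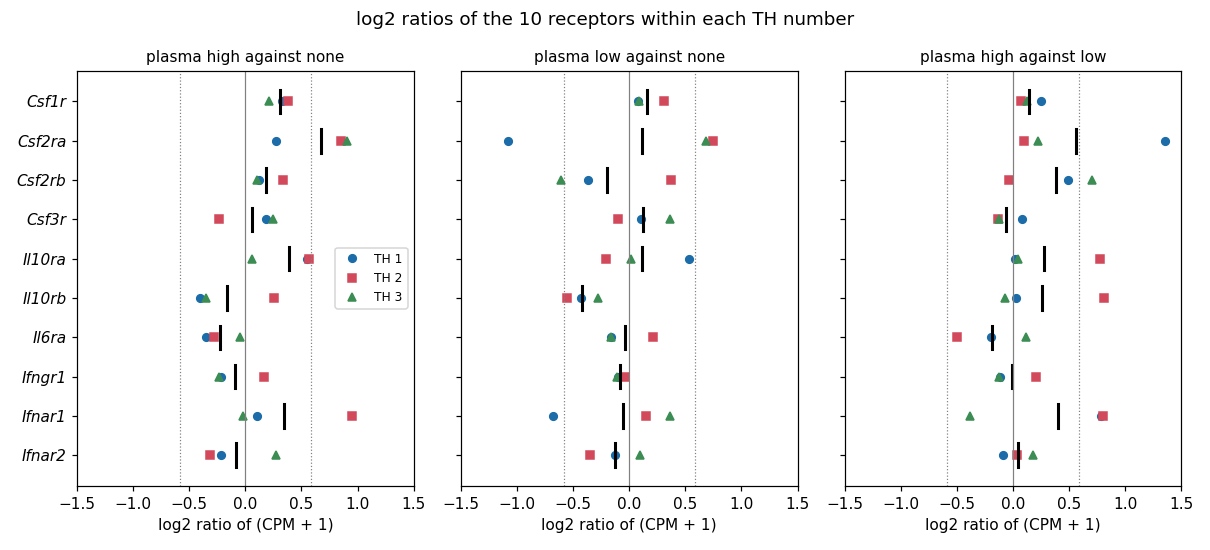
log2 ratio of (CPM + 1) for the 10 receptors in plasma high against none, low against none and high against low. Each symbol is 1 TH number, black bars are means, and dotted lines mark 1.5-fold; only *Csf2ra* in plasma high against none has its mean past a dotted line.

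Across the 10 receptors, the mean ratio of plasma high to none was above 0 for 6, higher in 3 of 3 TH numbers for 4 (*Csf1r*, *Csf2ra*, *Csf2rb*, *Il10ra*) and lower in all 3 for 1. Among genes tested 54.8% were above 0 and 18.8% higher in 3 of 3. The median log2 ratio of the receptors was 0.12, against 0.054 over all genes tested, and by TH number it was 0.11, 0.30 and 0.080. For plasma low against none 4 of 10 were above 0 (54.9% of genes tested) and the median was -0.045 against 0.049. That median turned to 0.041 when the cell richest in each gene was dropped and to 0.019 in edgeR without the block, and the median of plasma high to none was 0.035 with CPM averaged over cells. For plasma high against low, where 11.1% of 5709 genes tested were past 1.5-fold and none of the receptors was, 7 were above 0 (50.6% of genes tested) and the median was 0.20 against 0.0056. By TH number the receptor median was 0.050, 0.085 and 0.078, all below the 0.20, which is the median of the mean ratios. Without TH 2 it was 0.037. These comparisons share their groups and are not independent.

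A receptor needs its chains in 1 cell. At 50000 reads per cell, both chains for granulocyte-macrophage colony-stimulating factor were read in 6.94% of plasma none cells (95% interval 4.49 to 10.1), 8.26% of plasma low (5.603 to 11.7) and 8.97% of plasma high (5.94 to 12.9). The product of the 2 single shares was 5.87%, 7.61% and 8.56%, close to the measured shares. *Il10ra* with *Il10rb* reached 22.3%, 27.4% and 27.9%, against products of 23.3%, 25.04% and 26.7%. *Il6ra* with *Il6st* reached 19.7%, 29.1% and 24.5%. *Ifnar1* with *Ifnar2* reached 9.83%, 9.40% and 12.8%, and *Ifngr1* with *Ifngr2* 38.7%, 43.3% and 45.9%. In all 15 combinations of pair and group the product lay within the interval of the measured share. These intervals cover counting error over cells only and are no test between groups. By TH number, *Il6ra* with *Il6st* was read in 19.8%, 21.2% and 17.9% of plasma none cells and in 32.2%, 23.1% and 31.9% of plasma low cells.

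**Figure D4:**
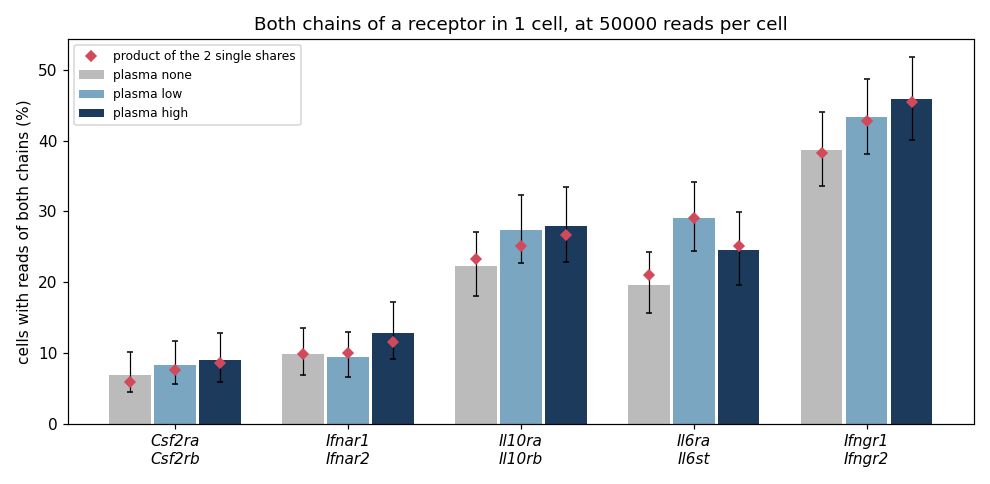
Percent of cells with reads of both chains of a receptor at 50000 reads per cell in plasma none, low and high. Bars are measured shares with 95% Clopper-Pearson intervals, and diamonds mark the product of the 2 single shares, which lies within every interval.

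Correlations between the receptors over single cells were weak. Over 987 cells, after the mean of each group and TH number was subtracted from log2(CPM + 1), the 45 pairs of receptors had Pearson r of -0.080 to 0.12 with a median of 0.037. Reads of most receptors were sparse, and weak values say little. Among 1580 genes read in at least 30% of cells, *Csf1r* was most like *Sirpa* (r = 0.36), *Serinc3* (0.28) and *Laptm5* (0.26). *Ifngr1* was most like the microglial genes *Tmem119* (0.20) and *Cx3cr1* (0.19), then *Gm49369* (0.19). *Il10rb* and *Ifnar2* were most like *Gm21970* (0.67 and 0.53), and *Il6ra* was most like *Gm42809* (0.71), genes that share exons with them. The remaining values were 0.14 or lower: *Csf3r* with *Ptafr*, *Txndc15* and *Csf1r*, *Il10ra* with *Ssh2*, *Bmp2k* and *Vav1*, *Il10rb* with *Gm49369* and *Ctsd*, *Il6ra* with *Srrm2* and *Txndc15*, and *Ifnar2* with *Otulinl* and *Fermt3*. All points share libraries, and r with log2 reads of the cell was 0.043 to 0.14 for the 7 receptors read in at least 50% of cells, so these are descriptions.

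The ligands of the receptors were scarce in the same cells. Of 20 ligand genes, *Il34*, *Csf2*, *Csf3*, *Il10*, *Ifng*, *Ifnb1*, *Il13* and *Lif* had no read in any of 987 cells, and only 4 passed the filter in plasma high against none. The most abundant was *Il16*, a chemoattractant cytokine, which fell by size from 331.2 CPM in plasma none to 219.7 in plasma high (log2 ratio -0.63 ± 0.52, and -0.34 without TH 2). *Il1a*, an inflammatory cytokine, was lower in 3 of 3 TH numbers at -0.49 ± 0.15, and *Tgfb1* had the only positive value, 0.17 ± 0.32.

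Of 33 other cytokine receptors, 10 passed the filter and 11 had no read. *Tgfbr1*, a receptor for transforming growth factor beta, was the most abundant (794 CPM in plasma none and 943 in plasma high). *Il13ra1*, a chain for interleukins 4 and 13, was past the size rule at 0.61 ± 0.43, but stood at 0.40 without TH 1 and at 0.25 with CPM averaged over cells. The lowest ratio was that of the tumour necrosis factor receptor *Tnfrsf1b*, -0.34 ± 0.39.

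Downstream of the receptors, 8 of 12 JAK and STAT genes passed the filter. In plasma none and high they were led in level by *Jak1* (214.15 and 288.01 CPM). *Stat3*, the main target of Il6 and Il10 signalling, was higher by size at 0.77 ± 0.51 (178.8 and 286.9 CPM) and *Tyk2*, a kinase of the interferon and Il10 receptors, was lower at -0.81 ± 0.85 from a low level (34.7 and 20.3 CPM). *Stat3* was 0.37 with CPM averaged over cells, and *Tyk2* was -0.36 without TH 2. Of 18 genes that carry or shape the Csf1r signal, 15 passed. *Lyn* had the highest mean over plasma none and high (726 and 824 CPM), though *Irf8* led in plasma none (755) and *Tyrobp* in plasma high (878). *Mapk3* was past the rule at 0.79 ± 0.52 (0.43 with CPM averaged over cells), and the phospholipase *Plcg2* was lowest at -0.44 ± 0.55.

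Of 22 genes that restrain cytokine receptors, 13 passed. *Ptprc*, the phosphatase CD45, was the most abundant (606 and 616 CPM). *Sh2b3*, an adaptor that dampens receptor signalling, was past the rule at 0.78 ± 0.18, with plasma high above plasma none without overlap. It was 0.46 when the cell with the most reads of the gene was dropped from each sum and 0.31 with CPM averaged over cells. *Cbl*, a ubiquitin ligase that takes Csf1r down, was past the rule at 0.85 ± 0.81, but stood at 0.41 without TH 1 and 0.10 with CPM averaged over cells. *Pias1* had the lowest value, -0.30 ± 0.38. Of 12 interferon target genes 2 passed the filter, *Irf1* (0.75 ± 0.57, past the rule) and *Bst2* (0.017 ± 1.23). *Irf1* was 0.56 without TH 3 and 0.43 with CPM averaged over cells. With 16.3% of all tested genes past the rule, the 8 past it among the 52 tested genes of these 6 lists (15.4%) are close to the background.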

How the data were processed

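Single microglia were profiled with Smart-seq2. The authors deposited 1 count table per TH number, with a read count for each gene and cell; per the file headers, TH 2 and TH 3 columns come from top-hit alignments, which TH 1 headers do not mention. In 1 column, 2 deposited values were not whole (unit: expected counts, rounded here). Per the submitters' processing notes, bcl2fastq, Trim Galore, STAR 2.5.3a, Seurat and the mm10 build were used; how reads were counted, and whether by strand, is not given in the sources used here. Of the labelled cells, 66 had no column and were not analysed here.

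Each label put a cell in a group. Cells with at least 50000 reads and 500 genes were summed per group and TH number, and CPM used edgeR's TMM factors. Log2 ratios of CPM + 1 were taken within TH numbers, and genes with a mean of at least 20 CPM and a read in at least 10% of cells of 1 group were tested by the size rule (1.5-fold, same sign in 3 of 3). Shares have exact Clopper-Pearson intervals, also after thinning to 50000 reads. Named genes are the 10 receptors, 3 partner chains, and from each list the most abundant gene, the largest rise and fall and those past the rule, plus the 3 genes most like each receptor read in at least 50% of cells. *Il1a* was named after its values were seen. Positions are from GENCODE M21 models matched by identifier. The 10 receptors and the lists were chosen with earlier results of these data known. The summed level of the microglia markers is not reported here. Scripts were tested on simulated data. Alternatives were total reads, DESeq2 size factors, pseudocounts of 0.5 and 5, other cell and gene filters, CPM averaged over cells, the top cell or outermost wells left out, each TH number left out, edgeR fits with and without the TH number as a block, and DESeq2 fits with it. After seeing the data, the removal of overlapping reads was added. Software was R 4.3.3, edgeR 4.0.16, DESeq2 1.42.0, Python 3.11.15, NumPy 2.4.6, SciPy 1.17.1, pandas 2.3.3 and matplotlib 3.10.9.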

Additional observations from a re-analysis of the deposited data

How the results depend on the processing

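Moves of a ratio were measured against its SD over the 3 TH numbers. With a TH number left out, a ratio could not move past that SD, so that outcome was fixed in advance for those settings. The 30 receptor ratios (10 genes in 3 comparisons) gave 459 values under 16 settings: 453 moved by less than their SD and 6 moved further. The sign turned in 22 of them, which belong to 11 ratios of at most 0.256 in size as reported; in plasma high against none these were *Ifnar2* at 0.026 with CPM averaged over cells and 0.028 without TH 2, and *Csf3r* at -0.027 without TH 3. The median ratio of the receptors in plasma high against low, 0.20 as reported, was 0.16 with total reads, 0.14 with CPM averaged over cells, 0.14 with the top cell left out and 0.18 without the outermost wells, and 0.037 to 0.19 with a TH number left out; the cause was not tested. The low against none median (-0.045) was -0.13 to -0.024 with a TH number left out, and the high against none median (0.12) was 0.076 to 0.11. With a TH number left out, genes past the 1.5-fold rule made up 22.9% to 28.1% (high against none, 16.3% as reported), 17.97% to 20.9% (low against none, 10.2%) and 19.2% to 22.1% (high against low, 11.1%) of genes tested, where the sign had to hold in fewer TH numbers.

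In fits on the 9 sums of 5761 genes, with TH numbers as the paired replicate block, edgeR called 0.0868%, 0% and 0% of genes at an adjusted p of 0.05 in those 3 comparisons (10.8%, 5.45% and 5.94% at an unadjusted p under 0.05). Without the block edgeR called 0.0174%, 0% and 0% (8.96%, 4.18% and 4.57%), and with the block DESeq2 called 1.87%, 0.139% and 0.104% (14.1%, 6.91% and 8%). None of the 10 receptors was called by either tool; at an unadjusted p under 0.05 the counts were 1, 1 and 0 in edgeR with the block, 0, 0 and 0 without it and 1, 1 and 0 in DESeq2. The labels do not say that TH numbers are animals, so these fits measure sets of wells. Depth limits the low members *Csf2ra*, *Csf2rb* and *Ifnar1*, read in a minority of cells.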
